A study of Mus musculus with 6 samples.

Results

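*Gap43*, *Basp1*, *Marcks*, *Marcksl1*, *Stmn1*, *Stmn2*, *Stmn3* and *Stmn4*, 8 genes of growth cone proteins, were described in RNA sequencing of mouse spinal cord motor neurons. They were chosen by name, and these 8 were found among 53858 genes of the count table. All 8 passed the filter on low counts, which kept 12954 genes. The cells were from wild-type mice whose sciatic nerve had been crushed, collected on day 6, so every pool was of injured neurons. The dye DiO was given on the proximal side of the injury on day 0. DiI was placed farther along the nerve on day 2, where it could be taken up by the axons that had regrown that far first. The 3 DiO-only pools (DiO+/DiI-) and the 3 double-labelled pools (DiO+/DiI+) each held 10 to 15 picked cells, and the lysis step allowed up to 20. The labels do not say whether pools came from different animals, and each p-value therefore reflects only the variation among these pools, which may be technical. The protocol speaks of 3 batches of libraries without naming the batch of each, so no value within a batch is given.

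The proteins fall into 2 sets. *Gap43*, *Basp1*, *Marcks* and *Marcksl1* encode acidic proteins tethered to the inner face of the plasma membrane by lipid anchors, where they bind calmodulin or the phospholipid PIP2 and are linked to the actin cortex of the growth cone. Phosphorylation by protein kinase C regulates *Gap43* and the MARCKS proteins. Stathmins bind tubulin dimers and favour the disassembly of microtubules, and phosphorylation relieves this action. Peripheral neurons are known to raise *Gap43* and *Stmn2* when their axons regrow.

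Coding sequences of relatives were compared first, because they decide whether reads could be told apart. The most alike ungapped 60-base stretch over all stathmins is shown with the 41 bases that all 4 share in capitals. Read from the start codon, it covers bases 241 to 300 of *Stmn1*, 343 to 402 of *Stmn2*, 346 to 405 of *Stmn3* and 454 to 513 of *Stmn4*, from the GENCODE M21 transcripts of mm10.
Stmn1: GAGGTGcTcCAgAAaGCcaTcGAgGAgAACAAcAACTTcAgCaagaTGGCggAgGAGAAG
Stmn2: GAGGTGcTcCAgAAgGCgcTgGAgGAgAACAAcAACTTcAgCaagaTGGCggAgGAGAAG
Stmn3: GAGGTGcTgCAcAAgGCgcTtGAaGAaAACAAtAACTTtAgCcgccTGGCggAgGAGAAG
Stmn4: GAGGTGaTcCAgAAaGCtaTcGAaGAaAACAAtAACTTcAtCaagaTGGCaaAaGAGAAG
In *Marcks* (bases 436 to 510) and *Marcksl1* (bases 259 to 333), 55 of 75 bases of the most similar stretch were identical and are in capitals. The stretch codes for the basic effector domain, the part of MARCKS proteins that binds calmodulin and PIP2 and holds the sites of protein kinase C.
Marcks: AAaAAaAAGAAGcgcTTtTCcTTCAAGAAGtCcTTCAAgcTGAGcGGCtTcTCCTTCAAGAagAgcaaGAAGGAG
Marcksl1: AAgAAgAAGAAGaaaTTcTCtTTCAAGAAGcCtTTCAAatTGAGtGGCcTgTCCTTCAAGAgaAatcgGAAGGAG
Over the whole coding sequence, identity between stathmins ran from 72.3% (*Stmn3* with *Stmn4*) to 81.7% (*Stmn1* with *Stmn4*), and *Marcks* and *Marcksl1* were 80.0% identical. The longest run shared by any pair of stathmins was 43 bases, in *Stmn1* and *Stmn2*. None of the 50-base words of *Gap43*, *Basp1*, *Stmn3* or *Stmn4* (0 in each) recurred in the transcripts of another gene. For *Stmn1* 369 of 1956 words (18.9%) recurred, in the processed pseudogene *Gm11223* or in *Gm23634*, a gene that overlaps its exon. *Gm11223* had 97 counts over all pools, equal to 0.292 to 1.83% of the *Stmn1* count in a pool, and *Gm23634* had 0. The value of *Stmn1* is uncertain to the extent that reads were split with this copy. Of the words of *Marcksl1*, 25 (1.61%) recurred elsewhere, and its pseudogene *Marcksl1-ps4* had 0 counts.

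As a group, the 8 genes stood lower in double-labelled pools, with the exception of *Marcksl1*, although no single gene passed the test. A log2 fold change below 0 was measured for 7 of the 8, where 48.7% of all tested genes were below 0. The median was -0.95, against 0.02 over all tested genes. Without DiO-only pool 2 the median of the 8 was -0.38 (0.04 over all tested genes), and with limma voom it was -0.52, so that library carried much of its size. At an unadjusted p under 0.05 there were 3 of 8, *Gap43*, *Stmn1* and *Stmn4*, all lower, where 2.63% of all tested genes were lower at that level. Scaled to the summed counts of pan-neuronal genes, only *Gap43* of them was left at that level (edgeR unadjusted p = 0.0181, adjusted p = 0.675), with *Marcksl1* as a higher gene (edgeR unadjusted p = 0.0349, adjusted p = 0.819). The pools of the groups did not overlap for 2 of 8, *Gap43* and *Stmn1*, where 7.07% of tested genes were lower without overlap. With Benjamini-Hochberg adjustment over all 12954 genes, edgeR's quasi-likelihood test called 0 genes (0%), of which 753 had an unadjusted p under 0.05 (5.81%). DESeq2 on unfiltered counts called 75 genes and limma voom 0, and none of the 8 was among them. Together the 8 genes took 1.06, 1.80 and 1.05% of all counts in DiO-only pools 1, 2 and 3, and 0.640, 1.03 and 0.730% in double-labelled pools 1, 2 and 3. Most of these counts were of *Stmn2*, *Stmn3* and *Gap43* (138725, 90314 and 49869 over all pools), and *Stmn1* was next with 12608. In DiO-only pool 2, *Stmn2* gave 39233 of 67275 counts. The share of the 8 genes was lower in each double-labelled pool than in any DiO-only pool. However, double-labelled pool 2, with a Wilson 95% interval of 1.01 to 1.04%, lay just under DiO-only pool 3, with 1.04 to 1.06%. These intervals cover counting error only. In pools of cells, fewer cells of a type and less RNA per cell cannot be told apart.

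**Figure D1:**
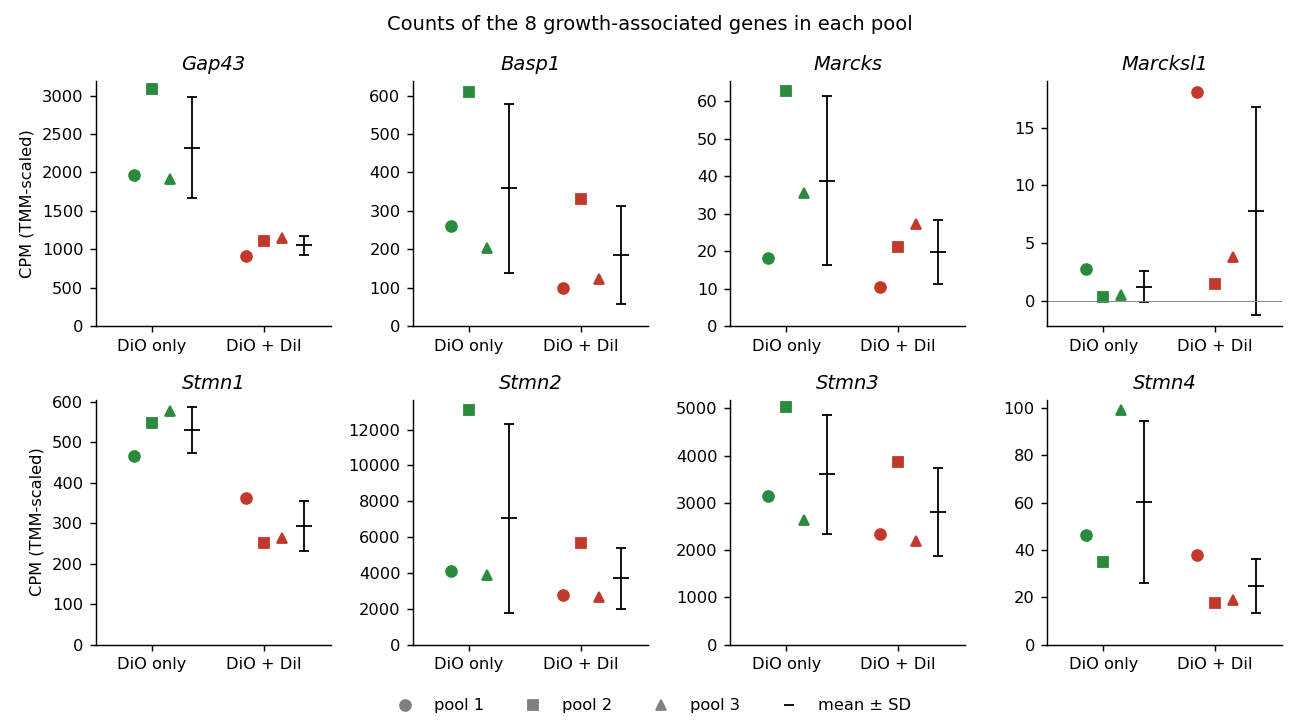
TMM-scaled CPM (counts relative to the effective library size) of each gene in each pool, DiO-only pools in green and double-labelled pools in red, with the symbol giving the pool number and black bars the mean ± SD (n = 3). *Gap43* and *Stmn1* separate the groups, while *Basp1*, *Stmn2* and *Stmn3* are highest in pool 2 of each group.

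Total counts per pool ran from 2997714 to 6563403, the highest in double-labelled pool 3. Genes with a count numbered 21399, 17229 and 22118 in DiO-only pools 1, 2 and 3. They numbered 15657, 16467 and 15993 in double-labelled pools 1, 2 and 3, each below every DiO-only pool. The part of this in the differences below was not tested. Levels are given as counts relative to the library total, in CPM after TMM scaling. The motor neuron genes *Chat* (78.4 ± 21.5 against 111 ± 27.3 CPM, DiO-only against double-labelled, SD, n = 3) and *Isl1* (31.9 ± 3.55 and 25.3 ± 8.93) had overlapping groups. *Mnx1* was low, at 0.334 to 10.9 CPM. Of 16 pan-neuronal genes 9 were lower, with a median log2 fold change of -0.04, and *Snap25* stood at 861 ± 176 and 938 ± 161 CPM. Lower without overlap were 3 of the 16 and higher 0, where 7.07% of all tested genes were lower and 5.86% higher without overlap. Oligodendrocyte markers stood higher in double-labelled pools in 11 of 11 tested genes, and astrocyte markers in 9 of 11, while microglial markers stood lower in 4 of 5 tested genes, with a median of -0.46. Scaled by total counts, the oligodendrocyte list summed to 230 to 634 CPM in the DiO-only group and 1331 to 5620 CPM in the double-labelled group, and the astrocyte list to 980 to 1098 and 991 to 2311 CPM. Most of the astrocyte sum came from *Aldoc* and *S100b*, named here after their values were seen, whose groups overlapped. *Mbp*, of myelin, measured 292 ± 132 against 2352 ± 1551 CPM. Astrocyte genes measured 13.3 ± 2.34 against 72.6 ± 28.7 CPM for *Slc1a2* and 4.57 ± 3.92 against 27.0 ± 8.21 CPM for *Aqp4*. Microglial *C1qa* reached at most 8.71 CPM, and *Slc17a6* of excitatory interneurons 62.6 CPM in DiO-only pool 1 with lower values in the other pools. *Slc6a5* of inhibitory interneurons, also named after its values were seen, had 92.5 CPM in DiO-only pool 3 and at most 5.75 CPM elsewhere. The part of these other cells in the differences below was not tested.

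*Gap43*, of the palmitoylated calmodulin-binding protein that marks growing axons (ENSMUSG00000047261; mm10 chromosome 16, 42248442 to 42340651, minus strand), had 1965, 3081 and 1920 TMM-scaled CPM in DiO-only pools 1, 2 and 3. It had 913, 1103 and 1144 CPM in the double-labelled pools. Every DiO-only pool was above every double-labelled pool, and the double-labelled pools lay within a factor of 1.25 of each other. The level was 2.21-fold higher in DiO-only pools, a log2 fold change of -1.14 ± 0.33 (SE) with a 95% interval of -1.86 to -0.42 (edgeR, unadjusted p = 0.00490, adjusted p = 0.616). The difference did not rest on a single library: with each pool left out in turn the log2 fold change ran from -1.27 to -0.88. Scaled to the summed counts of the pan-neuronal genes it was -0.93, so *Gap43* was also lower relative to that sum. The largest parts of the sum were the neurofilament genes *Nefm*, *Nefh* and *Nefl* (means of 12380, 9120 and 9039 CPM in DiO-only pools). Not every neuronal transcript was level: *Tubb3* (-1.03) and *Uchl1* (-0.87), both in the sum, had log2 fold changes near that of *Gap43*. Counts of *Gap43* were large, from 3013 to 13472 in a pool, and the microRNA gene *Mir6540* within its intron had 0 counts.

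*Basp1*, of a myristoylated protein related in function to *Gap43* (ENSMUSG00000045763; chromosome 15, 25363277 to 25413764, minus strand), had 260, 610 and 204 CPM in DiO-only pools 1, 2 and 3. It had 97.8, 331 and 124 CPM in double-labelled pools 1, 2 and 3. The groups overlapped, because double-labelled pool 2 was above DiO-only pools 1 and 3. The log2 fold change was -0.96 ± 0.52 (SE; edgeR, unadjusted p = 0.0912, adjusted p = 0.886). Without DiO-only pool 2 it was -0.33, and without double-labelled pool 2 it was -1.72, so these libraries set its size. Among pools of equal number the double-labelled pool was always the lower, as for each of the 7 lower genes of the 8. With a block for pool number the log2 fold change was -1.005 (edgeR, unadjusted p = 0.00156, adjusted p = 0.208), though the labels give no pairs. With that block 8.23% of all tested genes had an edgeR unadjusted p under 0.05, against 5.81% without it. The ratio of *Gap43* to *Basp1* counts, which needs no scaling between libraries, was 7.56, 5.05 and 9.41 in the DiO-only pools and 9.33, 3.34 and 9.25 in the double-labelled pools. The mean log2 ratio differed between groups by -0.11 (exact two-sided permutation p = 0.8, n = 3 per group), so *Gap43* was not shown to differ more than *Basp1*. The sign of this difference turned without DiO-only pool 3 (0.10) or double-labelled pool 2 (0.39).

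*Marcks*, of the founding member of the myristoylated protein kinase C substrates (ENSMUSG00000069662; chromosome 10, 37133375 to 37138920, minus strand), had 18.1, 62.8 and 35.4 CPM in DiO-only pools 1, 2 and 3. Double-labelled pools 1, 2 and 3 had 10.5, 21.2 and 27.3 CPM. DiO-only pool 1 lay below double-labelled pools 2 and 3. The log2 fold change was -0.97 ± 0.54 (SE; edgeR, unadjusted p = 0.0999, adjusted p = 0.899), and without DiO-only pool 2 it was -0.43.

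*Marcksl1*, its smaller relative (ENSMUSG00000047945; chromosome 4, 129513581 to 129515985, plus strand), was close to the limit of detection and pointed the other way. It had 19, 1 and 3 counts in DiO-only pools 1, 2 and 3, with exact Poisson 95% intervals of 11.4 to 29.7, 0.0253 to 5.57 and 0.619 to 8.77 counts. Double-labelled pools 1, 2 and 3 had 88, 4 and 28 counts, with intervals of 70.6 to 108, 1.09 to 10.2 and 18.6 to 40.5. In CPM this was 2.77, 0.334 and 0.516 against 18.1, 1.46 and 3.75, and the groups overlapped. The log2 fold change was 2.61 ± 1.29 (SE), with a 95% interval of -0.21 to 5.44 (edgeR, unadjusted p = 0.0669, adjusted p = 0.872). Most of the counts came from double-labelled pool 1, and without it the log2 fold change was 1.07; without DiO-only pool 1 it was 4.08. Scaled by total counts, oligodendrocyte markers summed to 2883, 1331 and 5620 CPM in double-labelled pools 1, 2 and 3. Astrocyte markers summed to 2311, 991 and 1644 CPM. Oligodendrocyte precursor markers summed to 31.9, 17.0 and 19.8 CPM in the same pools. *Aldoc* stood at 1711 TMM-scaled CPM in double-labelled pool 1. *Slc1a2* stood at 93.3 CPM in double-labelled pool 1 and at 84.7 CPM in double-labelled pool 3. The part of glial RNA in the *Marcksl1* counts was not tested. The ratio of *Marcksl1* to *Marcks* counts ranged from 0.00532 to 0.153 in DiO-only pools and from 0.0690 to 1.73 in double-labelled pools. The mean log2 ratio differed by 3.48, or by 2.09 without double-labelled pool 1 (exact two-sided permutation p = 0.3 with all pools, n = 3 per group).

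*Stmn1*, of the cytosolic founding stathmin (ENSMUSG00000028832; chromosome 4, 134468320 to 134473843, plus strand), had 466, 549 and 576 CPM in DiO-only pools 1, 2 and 3. It had 363, 251 and 264 CPM in double-labelled pools 1, 2 and 3. The groups did not overlap, and the DiO-only pools lay within a factor of 1.24, the narrowest spread of the 8 genes in that group. The log2 fold change was -0.86 ± 0.30 (SE), a level 1.81-fold higher in DiO-only pools, with a 95% interval of -1.51 to -0.21 (edgeR, unadjusted p = 0.0142, adjusted p = 0.692). Scaled to pan-neuronal genes it was -0.67, at an unadjusted p of 0.0995. With 1 pool left out it ran from -1.05 to -0.78.

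*Stmn2*, of the neuronal stathmin SCG10, carried to growth cones on vesicle membranes (ENSMUSG00000027500; chromosome 3, 8509360 to 8561606, plus strand), had 4128, 13110 and 3878 CPM in DiO-only pools 1, 2 and 3. Double-labelled pools 1, 2 and 3 had 2758, 5658 and 2646 CPM. DiO-only pool 2 was 3.38-fold above the lowest pool of its group, and double-labelled pool 2 was above DiO-only pools 1 and 3. The log2 fold change was -0.93 ± 0.52 (SE; edgeR, unadjusted p = 0.102, adjusted p = 0.899). Without DiO-only pool 2 it was -0.11, so the size of the difference rested on that library. Among pools of equal number the double-labelled pool was always the lower, as for the other lower genes of the 8. With a block for pool number the log2 fold change was -0.78 (edgeR, unadjusted p = 0.00589, adjusted p = 0.326), though the labels give no pairs. *Stmn2* had the most counts of the 8 genes in 6 of 6 pools, and among all genes it ranked from 9 to 22 by counts.

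*Stmn3*, of the related membrane-bound stathmin SCLIP (ENSMUSG00000027581; chromosome 2, 181306459 to 181314500, minus strand), had 3146, 5029 and 2633 CPM in DiO-only pools 1, 2 and 3. Double-labelled pools 1, 2 and 3 had 2349, 3866 and 2195 CPM. The groups overlapped, with pool 2 highest in each. It had the smallest log2 fold change of the 8 genes, -0.36 ± 0.38 (SE), with a 95% interval of -1.19 to 0.47 (edgeR, unadjusted p = 0.360, adjusted p = 0.970). The interval includes no difference and also the value of *Gap43*. Without DiO-only pool 2 it was -0.04 and without double-labelled pool 2 it was -0.69.

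*Stmn4*, of the stathmin RB3 (ENSMUSG00000022044; chromosome 14, 66344296 to 66361680, plus strand), had 46.4, 35.1 and 99.3 CPM in DiO-only pools 1, 2 and 3. It had 38.0, 17.6 and 19.0 CPM in double-labelled pools 1, 2 and 3. The groups overlapped, since double-labelled pool 1 was above DiO-only pool 2. The log2 fold change was -1.28 ± 0.49 (SE), the most negative of the 8 genes (edgeR, unadjusted p = 0.0241, adjusted p = 0.742). Without DiO-only pool 3, which had the highest level, it was -0.72. That pool also had the *Slc6a5* value of 92.5 CPM, and the part of interneuron RNA in the *Stmn4* level was not tested. Scaled to pan-neuronal genes it was -1.17, at an unadjusted p of 0.0601.

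**Figure D2:**
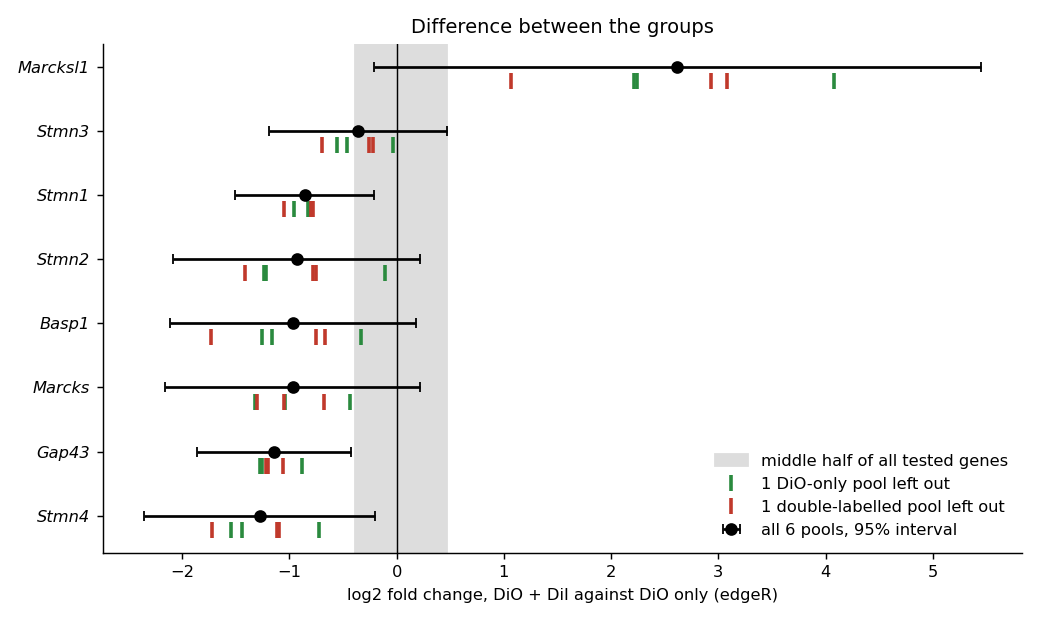
Log2 fold change of each gene for double-labelled against DiO-only pools (x axis; edgeR, all 6 pools, bars 95% intervals), with coloured ticks for the fits that leave out 1 pool and a grey band for the middle 50% of all tested genes (-0.39 to 0.47). *Gap43*, *Stmn1*, *Stmn4* and *Marcks* lie below the band in every fit, *Stmn2* and *Basp1* move into it without DiO-only pool 2, and *Stmn3* lies inside it with all pools.

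The stathmins were also compared with each other within each pool, with *Stmn3* as the common denominator. The count ratio of *Stmn2* to *Stmn3* was 1.31, 2.61 and 1.47 in DiO-only pools 1, 2 and 3 and 1.17, 1.46 and 1.21 in double-labelled pools 1, 2 and 3. Thus the ratio of *Stmn2* to *Stmn3* was narrow in 5 of the pools and shifted to *Stmn2* in DiO-only pool 2. The other ratios to *Stmn3* varied more, each lowest in double-labelled pool 2 and highest in DiO-only pool 3. They ran from 0.065 to 0.219 for *Stmn1* and from 0.0045 to 0.038 for *Stmn4*. The mean log2 ratio differed between groups by -0.43 for *Stmn2*, -0.52 for *Stmn1* and -0.87 for *Stmn4*. These sizes rested on single libraries: *Stmn2* came to -0.13 without DiO-only pool 2, *Stmn1* to -0.16 without double-labelled pool 2, and *Stmn4* to -0.24 without DiO-only pool 3 and to -1.46 without DiO-only pool 2. Exact two-sided permutation tests gave p = 0.2, 0.5 and 0.5 (n = 3 per group, where the smallest possible p is 0.1). Over the 5 ratios computed, adjusted p ran from 0.625 to 0.8. No stathmin was thus shown to differ between groups more than *Stmn3* did.

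**Figure D3:**
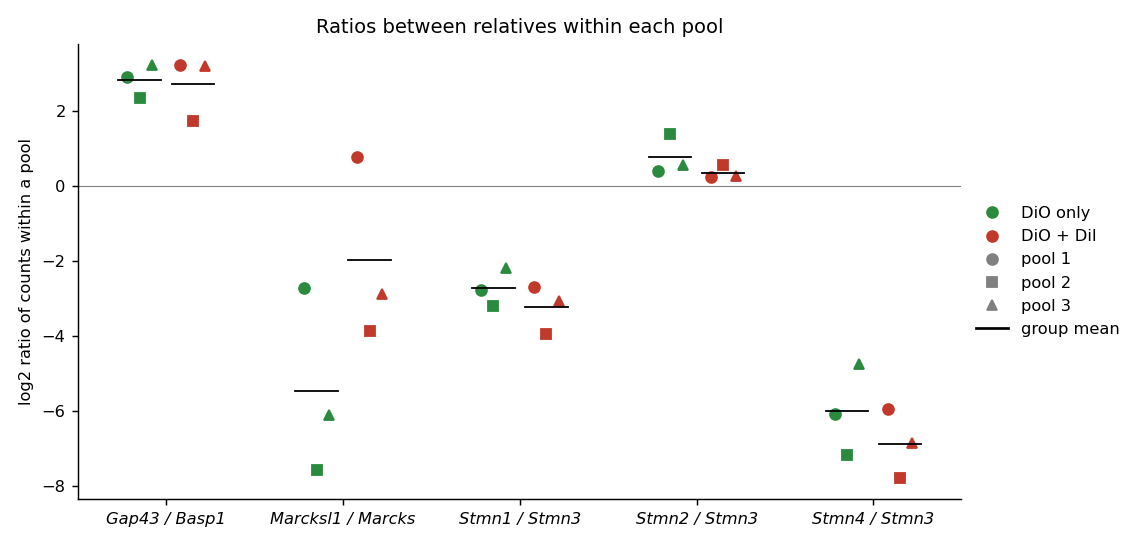
Log2 ratio of the raw counts of related genes within each pool (y axis), DiO-only pools in green and double-labelled pools in red, with black bars for group means. In each of the 5 pairs the pools of the groups overlap, and *Marcksl1* exceeds *Marcks* only in double-labelled pool 1 (ratio 1.73).

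Levels between genes were compared per kilobase of exon, as CPM per kilobase. *Stmn3* stood highest by the length of all its exons, from 1932 to 4427, and ranked between 9 and 14 among 21852 protein-coding genes in every pool. *Gap43* ranged from 599 to 2023 and *Stmn2* from 472 to 2340. *Gap43* was above *Stmn2* in 4 of 6 pools, so these neighbours were not separated, and their order turned when the length of the longest protein-coding transcript was used, with *Gap43* above in 0 of 6. *Stmn3* was above *Gap43* in 6 of 6 pools under either length. *Stmn2* was above *Stmn3* in 0 of 6 pools, or in 1 of 6 with the longest protein-coding transcript, where their means were 2587 and 2819 CPM per kilobase. *Stmn1* (130 to 300 CPM per kilobase) and *Basp1* (48.7 to 304) overlapped, and *Basp1* was above *Stmn1* in 2 of 6 pools, or 0 of 6 with the other length. *Stmn4* (9.17 to 51.8), *Marcks* (2.59 to 15.5) and *Marcksl1* (0.208 to 11.3) were the lowest. *Gap43* exceeded *Basp1* 4.4- to 12.4-fold and *Marcks* 111- to 289-fold within a pool, so that among the membrane-tethered proteins *Gap43* transcripts were by far the most abundant in every pool.

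**Figure D4:**
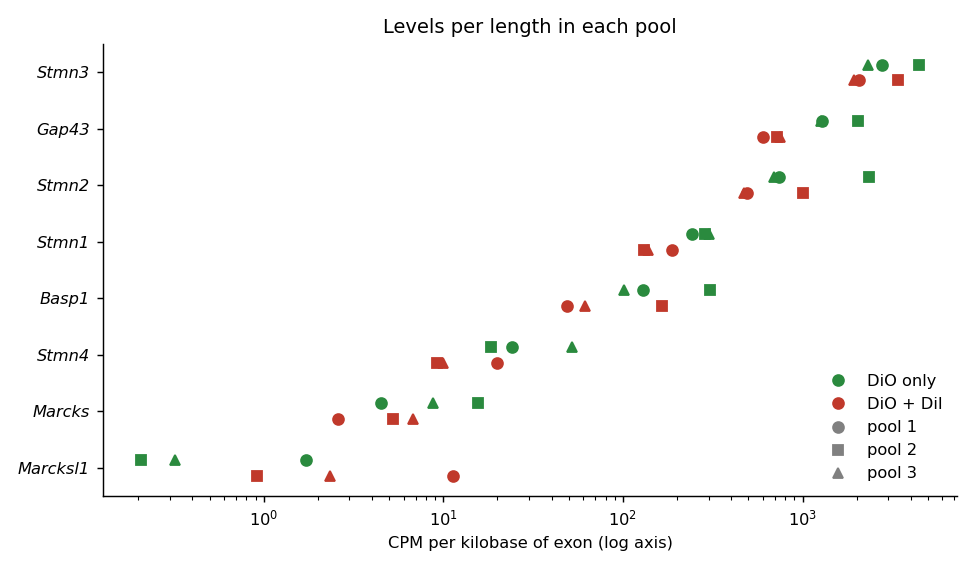
Level of each gene in each pool as TMM-scaled CPM per kilobase of exon (log axis), genes ordered by their mean over 6 pools, DiO-only pools in green and double-labelled pools in red. The genes span from 0.208 (*Marcksl1*, DiO-only pool 2) to 4427 (*Stmn3*, DiO-only pool 2).

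Partners of these proteins were taken from lists chosen by role, and 0 of their genes passed over all tested genes. Genes of growth cone actin pointed the same way as the 8: 17 of 23 tested were lower, and the median log2 fold change was -0.53. An unadjusted p under 0.05 was found for 5, all lower, and for 0 higher, where 2.63% of all tested genes were lower and 3.18% higher at that level. *Arpc2*, of a subunit of the actin-branching Arp2/3 complex, measured 277 ± 20.7 against 156 ± 23.7 CPM (DiO-only against double-labelled). *Arpc3*, of another subunit, measured 239 ± 25.7 and 145 ± 10.1 CPM, and neither overlapped between groups. *Pfn1*, of the actin monomer binder profilin, stood at 761 ± 348 and 395 ± 113 CPM, also without overlap. Their edgeR adjusted p ran from 0.698 to 0.751.

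Kinases that phosphorylate stathmins and lie upstream of them were lower in 13 of 18 tested genes, and the median was -0.14. Without overlap, 3 were lower and 1 higher, where 7.07% of all tested genes were lower and 5.86% higher without overlap. None of the lower kinases (0 of 13) had an edgeR unadjusted p under 0.05. *Camk2b*, of a calcium- and calmodulin-dependent kinase, stood apart from them at 57.8 ± 32.1 CPM in DiO-only and 175 ± 13.8 CPM in double-labelled pools, with no overlap (log2 fold change 1.59 ± 0.40, SE; edgeR unadjusted p = 0.00198, adjusted p = 0.476). *Camk4* (47.3 ± 17.4 and 23.1 ± 13.8 CPM) had overlapping groups. Protein kinase C isoforms, calmodulins, calcineurin subunits and related calmodulin binders were higher in 11 of 14 tested genes. The median was 0.25, and 0 of the 14 had an unadjusted p under 0.05. Calmodulin genes encode the same protein from similar transcripts, so their reads may be split. *Prkce* stood at 19.6 ± 10.4 and 30.1 ± 7.39 CPM and *Prkcd* at 5.65 ± 5.79 and 13.8 ± 12.5 CPM, both with overlap.

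Enzymes of lipid anchors and PIP2 turnover lay on either side, 10 of 18 lower, with a median of -0.06. Without overlap, 3 genes were higher and 1 lower, where 5.86% of all tested genes were higher and 7.07% lower without overlap. *Ppt1*, which removes palmitate, stood at 72.2 ± 6.77 and 126 ± 35.5 CPM without overlap (edgeR unadjusted p = 0.0312, adjusted p = 0.765). *Pip4k2a*, a PIP2-making kinase, stood at 16.5 ± 2.55 and 31.6 ± 14.3 CPM without overlap, and *Zdhhc3*, which adds palmitate, at 113 ± 37.5 and 72.0 ± 14.1 CPM with overlap. Of 8 tested RNA-binding protein genes 5 were lower, with a median of -0.11. *Elavl4*, of the HuD protein that stabilises *Gap43* mRNA, stood at 263 ± 25.6 and 191 ± 36 CPM without overlap (edgeR unadjusted p = 0.141, adjusted p = 0.936). *Elavl3* stood at 195 ± 21.8 and 162 ± 52.2 CPM and *Khsrp*, of a destabilising factor, at 9.70 ± 2.03 and 7.75 ± 2.07 CPM.

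**Figure D5:**
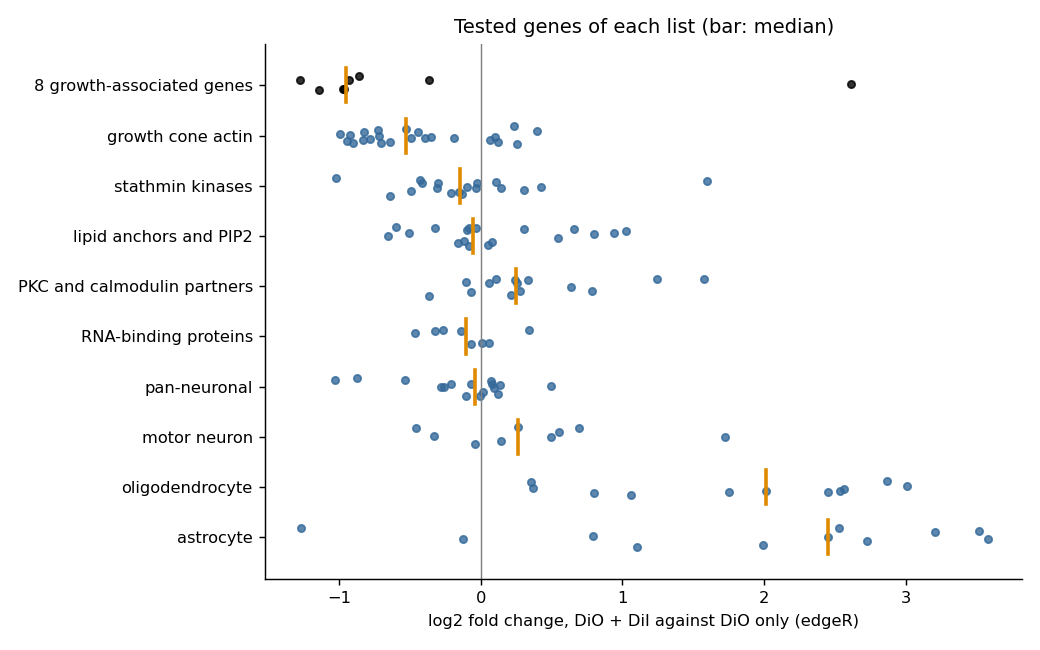
Log2 fold changes for double-labelled against DiO-only pools (x axis) of the tested genes of each list, 1 point per gene and an orange bar at the median. Medians are -0.95 for the 8 genes, -0.53 for growth cone actin, -0.04 for pan-neuronal genes, 2.02 for oligodendrocyte and 2.45 for astrocyte markers.

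The genes whose profile over the 6 pools lay nearest were found by the root mean square difference of log2 CPM after centring each gene, among genes with a mean of at least 20 CPM. Nearest to *Gap43* of 6531 genes were *Aprt* (0.12), *Nf2* (0.14) and the neuronal tubulin gene *Tubb3* (0.18), against a median distance of 0.74. *Tubb3* stood at 6711 ± 731 and 3284 ± 789 CPM (SD, n = 3), and tubulin genes are close copies whose reads may be split. Nearest to *Stmn2* were *Actb* (0.16), *Sncg* (0.17) and *Syt4* (0.17), against a median of 0.89. *Sncg* stood at 5481 CPM in DiO-only pool 2 and at 1052 to 2976 CPM in the other pools, so the genes nearest to *Stmn2* shared its high value in that library. Among the 8 genes the closest pair was *Basp1* with *Stmn2*, at a distance of 0.27, where *Stmn2* ranked 8 of 6531 for *Basp1*. *Stmn1* ranked 178 for *Gap43*, *Stmn4* 3624 and *Stmn2* 933. These distances describe 6 pools.

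Promoter sequence from RefSeq (GRCm38.p6) was matched for 3 of the 8 genes, *Basp1*, *Stmn3* and *Marcksl1*, whose log2 fold changes were -0.96, -0.36 and 2.61. The 250 bases before the start are shown to set these 3 side by side, with GC boxes (GGGCGG) in capitals. They lie at chr15:25413765-25414014 (minus strand), chr2:181314501-181314750 (minus strand) and chr4:129513331-129513580 (plus strand).
Basp1: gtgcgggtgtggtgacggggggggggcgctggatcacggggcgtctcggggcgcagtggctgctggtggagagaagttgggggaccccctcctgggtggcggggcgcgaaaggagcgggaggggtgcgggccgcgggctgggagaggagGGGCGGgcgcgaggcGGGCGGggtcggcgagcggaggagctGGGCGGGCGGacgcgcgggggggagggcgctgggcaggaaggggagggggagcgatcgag
Stmn3: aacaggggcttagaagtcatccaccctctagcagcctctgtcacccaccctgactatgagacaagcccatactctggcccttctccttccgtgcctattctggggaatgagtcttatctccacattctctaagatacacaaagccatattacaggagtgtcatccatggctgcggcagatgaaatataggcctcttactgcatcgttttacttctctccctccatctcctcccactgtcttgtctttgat
Marcksl1: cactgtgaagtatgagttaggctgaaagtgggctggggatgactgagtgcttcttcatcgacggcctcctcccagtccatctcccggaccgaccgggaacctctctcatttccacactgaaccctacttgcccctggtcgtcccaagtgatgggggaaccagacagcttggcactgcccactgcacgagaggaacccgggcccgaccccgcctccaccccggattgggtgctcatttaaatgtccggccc
The *Basp1* window is 78.8% G and C and holds 4 GC boxes, starting 101, 86, 60 and 56 bases before the start, the last 2 of which overlap. The *Stmn3* window is 48.8% and the *Marcksl1* window 60.4% G and C, and neither holds this motif on either strand (0 matches), which is found in 32.7% of 32851 RefSeq promoter windows of this length. Of the other motifs searched on both strands, each had 0 matches in the 3 windows. The AP-1 motif TGANTCA was found in 6.75% of all windows. The cyclic AMP response element, TGACGTCA, was found in 1.55% and the TATA box, as TATAAA, in 12.4%. An E-box of the letters CAGCTG was found in 13.0% and the SOX motif AACAAT in 9.42%. No match says only that these letters are not in the window.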

How the data were processed

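RNA was measured in 6 libraries of pooled, dye-labelled motor neurons, with cDNA made by SMART-Seq HT and 20 cycles of PCR per the labels' protocols. The authors deposited read counts per Ensembl gene, which are not normalised; FastQC, HISAT2, HTSeq and mm10 are named in the submitters' processing notes. Not given in the sources used here: tool versions, annotation, strand setting and treatment of multi-mapped reads. Of 53858 identifiers, 53772 (99.8%) matched GENCODE M21 on GRCm38 (mm10). The 8 members, the lists and the tests were chosen with earlier results of these data known.

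Counts were analysed in R 4.3.3 with edgeR 4.0.16: filterByExpr by group (12954 genes, 99.2% of counts), TMM scaling, the robust quasi-likelihood F-test and Benjamini-Hochberg adjustment with a threshold of 0.05, two-sided. Each SE is the log2 fold change divided by the root of F. Each SD is over 3 pools. A count of 3 equals 0.457 to 1.00 CPM in a library. Exact permutation tests over pools used 5 count ratios. Named genes were the members, up to 3 partners of smallest p per list, the 3 nearest genes and fixed markers, of which some are not reported here; *Uchl1*, *Aldoc*, *S100b* and *Slc6a5* were named after their values were seen. Alternatives were other scalings and filters, DESeq2 1.42.0, limma 3.58.1 voom, a replicate block and leaving out each library; pan-neuronal scaling, thinning and a further gene length were added after seeing the data. Figures used matplotlib 3.10.9.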

Additional observations from a re-analysis of the deposited data

How the results depend on the processing

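Over 16 refits of the same libraries, the 8 log2 fold changes gave 127 results, 1 per gene and refit. All 127 kept their direction and stayed on the same side of the threshold. The refits were other scalings and filters, DESeq2, limma voom, the replicate block, thinning, pan-neuronal scaling, and each library left out. *Marcksl1* was removed by the stricter filter of 10 counts in 5 libraries. The lowest adjusted p was 0.118, for *Gap43* with DESeq2, whose adjusted p over its 16 refits ran from 0.118 to 1. The number of genes called, 0 in the edgeR fit, was 79 without a filter, 75 with DESeq2 and 23 with the replicate block, with 0 of the 8 among them. Members at an unadjusted p under 0.05 numbered 5 without a filter and 5 with the block, 3 to 5 with 1 library left out, and 2 with pan-neuronal scaling (*Gap43* lower, *Marcksl1* higher). The difference in the *Gap43* to *Basp1* ratio ran from -0.35 to 0.39 with 1 library left out. Pan-neuronal scaling moved the median of all genes from 0.02 to 0.21 and that of the 8 genes from -0.95 to -0.69. That of the 8 was -0.38 without DiO-only pool 2. In limma voom with sample weights *Stmn2* was -0.35 and *Basp1* -0.46. The labels do not say whether pools of equal number are pairs. The deviations of such pools from their group means correlated at 0.07, 0.23 and 0.20 across genes, each the highest for that pool. Pools of unequal number correlated at -0.19 to 0.02. The cause of these shifts was not tested. *Marcksl1*, at 1 to 88 counts a pool, is limited by depth.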

Other observations

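Among the 16 pan-neuronal genes, with a median log2 fold change of -0.04, only *Tubb3* and *Uchl1*, of a neuronal deubiquitinase, had an edgeR unadjusted p under 0.05. Both were lower (2 of 16), where 2.63% of all tested genes were lower at that level. Lower without overlap were 3 of the 16, where 7.07% of all tested genes were. *Uchl1* stood at 3314, 3546 and 3250 CPM in DiO-only pools 1, 2 and 3 and at 1424, 1990 and 2111 CPM in double-labelled pools 1, 2 and 3, with no overlap (log2 fold change -0.87 ± 0.32, SE; edgeR unadjusted p = 0.0184, adjusted p = 0.720). *Basp1*, *Stmn2* and *Stmn3* had their highest level in pool 2 of each group.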
